A study of Mus musculus with 2 samples.

Results

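Pecam1, Cd34, Ecscr and Icam1 encode adhesion and junction proteins best known from blood vessels, and each was also counted in microglia. These 4 genes of the 32589 features in the deposited matrices were followed in the microglia of 2 libraries and in the few barcodes that carried Cldn5, the tight-junction claudin of brain endothelium. They had been picked for their pattern in microglia in an earlier look at the same files, so their levels in microglia are given as a description, with no test. The study sorted CD45-low, CD11b-positive cells from the prefrontal cortex of C57BL/6 mice by flow cytometry and sequenced them as single cells with a Singleron GEXSCOPE kit. The vehicle group and the corticosterone group, which received the main glucocorticoid of rodents by oral gavage to model depression with raised stress hormone, were represented by 1 library each. Genotype beyond the strain, number and age of the animals, dose and duration are not given in the sources used here. With 1 library per group no p-value was computed, intervals are at the 95% level and cover counting error only, and group, library and preparation cannot be told apart.

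Leukocytes leave the blood in steps. Selectins on one cell hold sialomucins on the other, leukocyte integrins then grip immunoglobulin-type receptors of the vessel wall, and the leukocyte passes through the endothelial junction. Pecam1 (CD31) is an immunoglobulin-type receptor of that junction that binds itself on the next cell and recruits phosphatases through its cytoplasmic tail. Cd34 is a sialomucin of blood progenitors and capillary endothelium. Ecscr is a small membrane protein of endothelium that takes part in endothelial migration and survival, and Icam1 is the receptor that integrins of the Itgb2 family bind, induced in many cells by inflammatory signals.

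After filtering, the vehicle library held 10500 cells with 49325067 UMIs (molecular tags that count a transcript a single time) and the corticosterone library 17883 cells with 85103539 UMIs. The median cell carried 3220.5 UMIs in vehicle and 3961 in corticosterone, and 2.67% and 4.20% of its UMIs were mitochondrial. A stricter filter on cells (at least 1000 UMIs and 500 genes, at most 10% mitochondrial) changed no direction of a member in microglia. The libraries shared 101 barcodes, and leaving these out changed no direction of a member in microglia. Clustering placed 7821 vehicle cells (74.5%) and 15206 corticosterone cells (85.0%) in microglia-like clusters, whose markers P2ry12, Tmem119, Sall1 and Siglech were present in both libraries. The largest part of the vehicle microglia, 7305 cells, lay in one cluster, and the largest part of the corticosterone microglia, 11691 cells, in another. The endothelial-like cluster held 40 and 24 barcodes, with 13 of 15 endothelial markers raised, but astrocyte and neural genes such as Slc1a2 and Sparcl1 also stood among its leading genes. Cldn5 was counted in 9 of these vehicle barcodes and 13 of these corticosterone barcodes.

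In microglia, Pecam1 and Ecscr were lower in the corticosterone library, and Cd34 was higher. Icam1 differed by a small amount. The levels below are UMIs summed over the microglia-like cells of a library and given as CPM, the UMIs of a gene per 1000000 UMIs of that sum, and ratios are on the log2 scale. All 4 members passed the level of 5 CPM, taken as the mean of both libraries, that was asked of a gene before its ratio was ranked. Pecam1 reached this level through the vehicle library alone, and its mean of 19.7 CPM lies under the alternative level of 20 CPM.

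Pecam1 lies on chromosome 11 from 106654217 to 106750628 on the minus strand (GRCm38, ENSMUSG00000020717). In vehicle microglia 1144 UMIs were counted, a level of 35.6 CPM (33.6 to 37.8), and in corticosterone microglia 271 UMIs, a level of 3.81 CPM (3.37 to 4.29). The vehicle level was 9.36 times the corticosterone level, a log2 ratio of -3.23 (-3.42 to -3.03). Among the 9670 genes at 5 CPM or more this was the eighth lowest ratio. A strict choice of microglia, with at least 5 microglial UMIs and at most 1 UMI of any other class, kept 407 and 433 cells, in which Pecam1 had 17 UMIs in vehicle and 1 in corticosterone. The log2 ratio there was -4.65, with a counting interval of -10.03 to -1.97.

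Ecscr lies on chromosome 18 from 35713086 to 35722356 on the minus strand (ENSMUSG00000073599), wholly inside the gene 1700066B19Rik of the plus strand. Whether reads were counted by strand is not given in the sources used here, so reads of the shared 9271 bases cannot be told apart. The opposite gene itself had 149 vehicle UMIs and 243 corticosterone UMIs in microglia. Ecscr had 14274 UMIs in vehicle, a level of 445 CPM (437 to 452), and 8780 in corticosterone, a level of 123 CPM (121 to 126). The vehicle level was 3.60 times the corticosterone level, a log2 ratio of -1.85 (-1.89 to -1.81), which ranked 37 from the lowest.

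Cd34 lies on chromosome 1 from 194938819 to 194961279 on the plus strand (ENSMUSG00000016494) and overlaps the antisense gene Gm16897 by 5521 bases, with 4 and 7 UMIs of the latter in microglia. In vehicle microglia Cd34 had 3684 UMIs, a level of 115 CPM (111 to 119). In corticosterone microglia it had 23085 UMIs, a level of 324 CPM (320 to 329). The corticosterone level was 2.83 times the vehicle level, a log2 ratio of 1.50 (1.45 to 1.55), which ranked 88 from the highest of the 9670 genes.

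Icam1 lies on chromosome 9 from 21015985 to 21028817 on the plus strand (ENSMUSG00000037405) and overlaps the antisense gene Gm47079 by 511 bases, with 39 and 102 UMIs of the latter in microglia. Its 5208 vehicle UMIs gave 162 CPM (158 to 167), and its 14445 corticosterone UMIs gave 203 CPM (200 to 206). The corticosterone level was 1.25 times the vehicle level, a log2 ratio of 0.32 (0.28 to 0.37), which ranked 1466 from the highest.

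Past a log2 ratio of 1, a 2-fold difference, 1 of the 4 members was higher in corticosterone, against 2.24% of all 9670 genes, and 2 of the 4 were lower, against 2.04%. The members were chosen on this contrast, so nothing is read from these counts. In the plot of all genes, Pecam1 and Ecscr lie at the lower edge of the genes of their level and Cd34 at the upper edge.

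**Figure D1:**
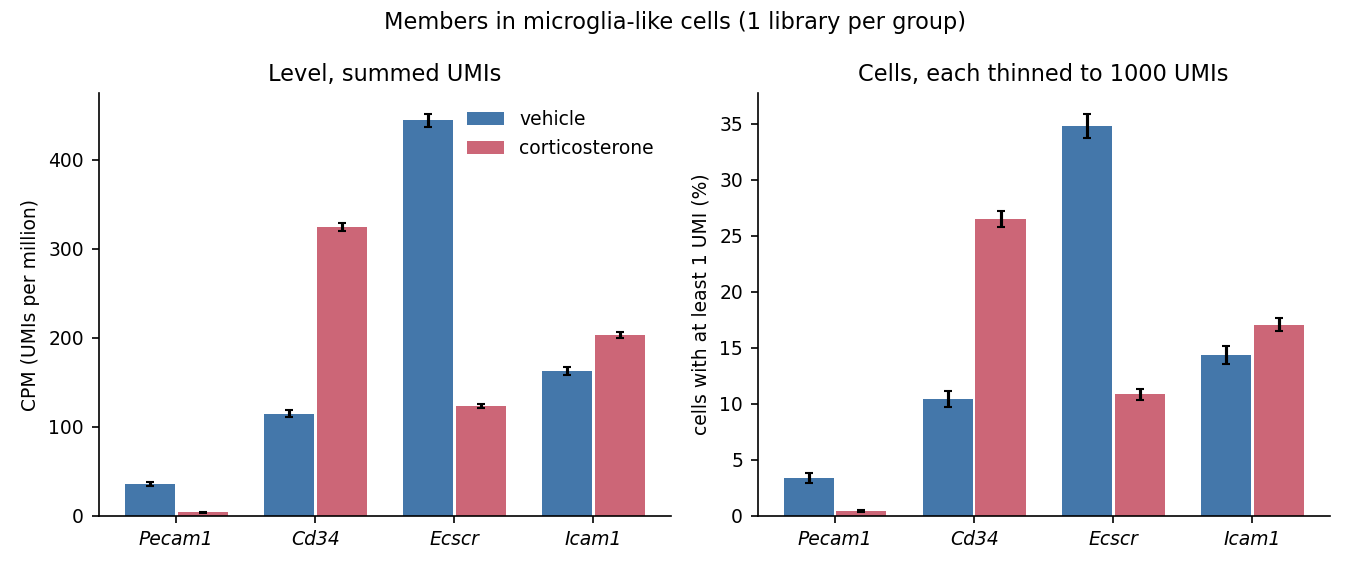
Level in CPM (left) and percent of cells with at least 1 UMI after each cell was thinned to 1000 UMIs (right) of the 4 members in microglia-like cells of the vehicle library (blue) and the corticosterone library (red). Bars are single libraries and whiskers are 95% counting intervals. Pecam1 and Ecscr are lower and Cd34 is higher in corticosterone, while the Icam1 bars at 162 and 203 CPM are close to each other.

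**Figure D2:**
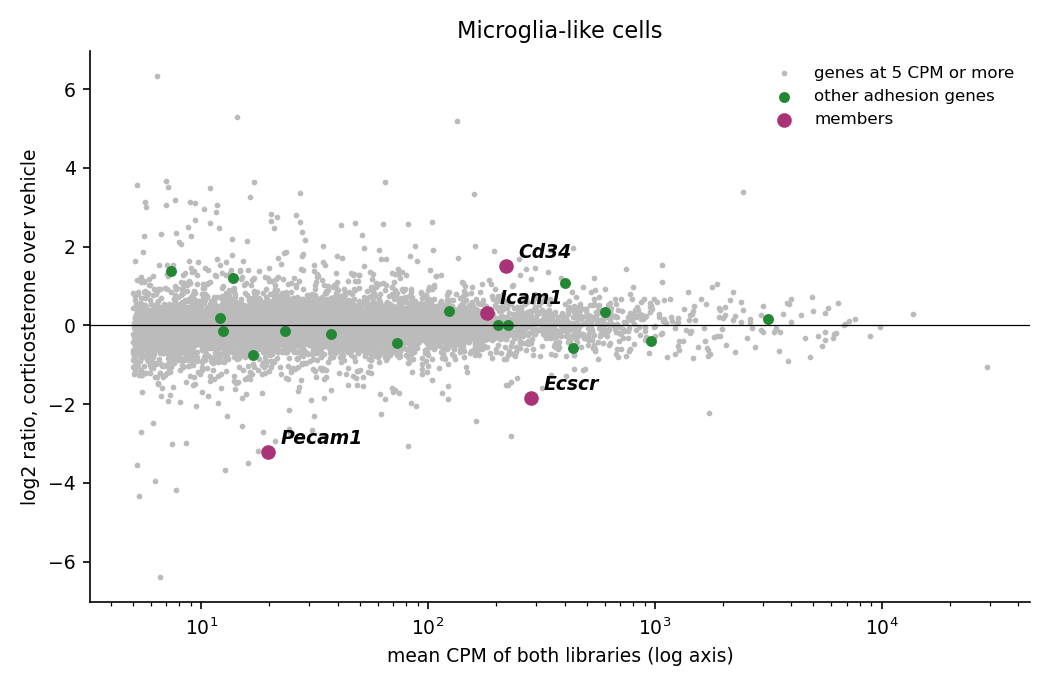
Log2 ratio of corticosterone over vehicle (vertical axis) against the mean CPM of both libraries (horizontal log axis) in microglia-like cells, 1 point per gene at 5 CPM or more. The 4 members are purple, and green points are genes of the lists of counter-receptors and other adhesion molecules. Pecam1 at -3.23 and Ecscr at -1.85 lie below nearly all genes of like level, Cd34 at 1.50 above them and Icam1 at 0.32 within them.

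The stretch before the RefSeq start of transcription is shown for Cd34 and Icam1. Pecam1 and Ecscr had no promoter entry in the source used, so no contrast with them can be read. The stretches are the 250 bases on the plus strand of GRCm38.p6 at chr1:194938571-194938820 and chr9:21015690-21015939. Capitals mark matches to the longer motifs searched, on either strand.

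Cd34: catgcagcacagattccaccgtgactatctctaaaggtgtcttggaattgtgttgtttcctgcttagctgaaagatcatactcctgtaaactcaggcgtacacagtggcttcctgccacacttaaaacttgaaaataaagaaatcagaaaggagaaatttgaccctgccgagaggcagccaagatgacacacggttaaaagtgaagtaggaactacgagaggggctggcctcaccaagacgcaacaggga

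Icam1: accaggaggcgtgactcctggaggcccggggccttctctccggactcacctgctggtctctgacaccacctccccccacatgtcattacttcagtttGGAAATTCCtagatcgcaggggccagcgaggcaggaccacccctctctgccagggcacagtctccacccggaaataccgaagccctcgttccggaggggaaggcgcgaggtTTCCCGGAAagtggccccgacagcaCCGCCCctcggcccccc

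The Icam1 stretch held 1 match each to an NF-kB related motif (GGAANNTCC, 153 bases before the start), an interferon gamma activated site (TTCNNNGAA, 42 bases before) and a GC box (GGGCGG, on the other strand, 17 bases before). Of 32536 RefSeq promoters of this length, 3.59% held the NF-kB related motif, 7.04% the interferon gamma activated site and 33.0% the GC box. The Cd34 stretch held none of these. It had 5 matches to the ETS core GGAA and 1 to the GATA core GATA, where 93.4% and 53.4% of promoters had at least 1. Icam1 had 7 ETS cores, some of them inside the longer matches. The full glucocorticoid response element, AGAACA and TGTTCT with 3 bases between them, was in neither stretch, and in 3 of all promoters. A match describes letters only, and binding was not measured.

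The share of cells with a member was compared after thinning, since the libraries differed in depth. Thinning to 1000 UMIs kept 7239 vehicle and 15119 corticosterone microglia and left out 582 and 87 with fewer. At least 1 Pecam1 UMI was then found in 3.34% (2.94% to 3.78%) of vehicle cells and in 0.403% (0.309% to 0.518%) of corticosterone cells. For Ecscr the shares were 34.8% and 10.9%. Cd34 went the other way, with 10.4% of vehicle and 26.5% of corticosterone cells, and Icam1 was found in 14.3% and 17.1%. Before thinning the shares were 11.7% and 1.64% for Pecam1, 67.3% and 35.3% for Ecscr, 29.8% and 68.1% for Cd34, and 38.5% and 49.9% for Icam1. Shares and summed levels thus gave the same order of the libraries for each member.

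Erythroid-like barcodes, whose own cells should lack these genes, also held the members, and they carried microglial transcripts too. P2ry12, the purinergic receptor used as a microglial marker, was found in 94.2% and 92.9% of thinned erythroid-like barcodes, against 99.1% and 94.2% of microglia. With 155 and 70 barcodes at median depths of 2477 and 3763 UMIs, Pecam1 was found in 3.23% of vehicle and 0% of corticosterone barcodes, the latter with an upper limit of 5.13%. Cd34 was found in 6.45% and 42.9% (31.1% to 55.3%) of them, the latter above the microglial share of 26.5%, Ecscr in 31.6% and 5.71%, and Icam1 in 14.8% and 22.9%. That excess of Cd34 was not seen over all corticosterone UMIs, at 322 CPM in erythroid-like barcodes and 324 CPM in microglia. With thinning to 2000 UMIs the corticosterone shares of Cd34 were 53.6% (41.2% to 65.7%) and 44.9%. Neutrophil-like barcodes had less microglial RNA, with P2ry12 in 72.0% and 34.4%. Their shares were 2.31% and 0% for Pecam1, 4.34% and 6.15% for Cd34, 15.9% and 1.28% for Ecscr, and 7.23% and 5.38% for Icam1, each below the microglial share of its library, though the intervals overlap for Pecam1. In the 76 corticosterone neutrophil-like barcodes with at most 2 UMIs of the microglia markers, 172622 UMIs in all held 1 Pecam1, 3 Cd34, 0 Ecscr and 1 Icam1 UMI.

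Within microglia the members were counted together in a cell about as often as the product of their shares gives. In thinned vehicle cells the 6 pairs were seen at 0.924 to 1.04 times that product. In thinned corticosterone cells the span was 0.680 to 1.36, with both ends from pairs that include Pecam1 and rest on 11 and 9 cells. Cd34 and Icam1, the members higher in corticosterone, were counted together in 661 cells where the product gave 684. No member was found in 48.3% of vehicle and 54.1% of corticosterone microglia at this depth. Without thinning every pair was above the product in both libraries, at 1.14 to 1.36 times in vehicle and 1.06 to 1.37 times in corticosterone.

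The difference between libraries was present in every bin of depth. When microglia of each library were split by their UMIs into 4 depth bins of equal size, Pecam1 lay between 33.4 and 40.4 CPM in vehicle and between 3.32 and 4.77 CPM in corticosterone. Ecscr lay between 416 and 450 CPM and between 121 and 128 CPM. Cd34 lay between 102 and 121 CPM and between 317 and 329 CPM. For Icam1 the libraries were nearest, at 155 to 175 CPM in vehicle and 196 to 208 CPM in corticosterone. For each of the 4 members the span of bin levels in one library lay apart from that in the other. The bins were cut within each library, so their limits differ. The lowest bin ended at 2120 UMIs in vehicle and 3099 in corticosterone, and the highest began at 4637 and 5287.

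Within each joint cluster of microglia but a small cycling one, Cd34 and Ecscr differed between libraries in the direction seen over all microglia. Icam1 differed between clusters as well. The cycling cluster held 20 vehicle cells with 24 Cd34 UMIs, and 2 corticosterone cells with 0 Cd34 UMIs, which allows up to 325 CPM. The 4 genes were kept out of the clustering, though genes that vary with them were not. The cluster that held most vehicle microglia also held 244 corticosterone cells, in which Pecam1 was at 7.77 CPM (3.13 to 16.0) and Ecscr at 170 CPM, against 36.1 and 446 CPM in the vehicle cells beside them. Cd34 was at 270 CPM in those corticosterone cells and at 113 CPM in the vehicle cells. The cluster that held most corticosterone microglia, led by Il1b, Apoe and Cybb, included 254 vehicle cells with Pecam1 at 31.3 CPM (20.3 to 46.2) and Ecscr at 398 CPM, against 3.77 and 122 CPM in the corticosterone cells. Cd34 there was at 144 CPM in the vehicle cells and at 322 CPM in the others. Icam1 was at 213 CPM (182 to 247) in those vehicle cells and at 202 CPM (199 to 206) in the corticosterone cells, so within this cluster its levels overlapped. Another cluster of microglia, with 203 vehicle cells and 2584 corticosterone cells, was an exception for Pecam1, whose 4 vehicle UMIs gave 11.4 CPM (3.10 to 29.1) beside 4.52 CPM (3.11 to 6.35).

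**Figure D3:**
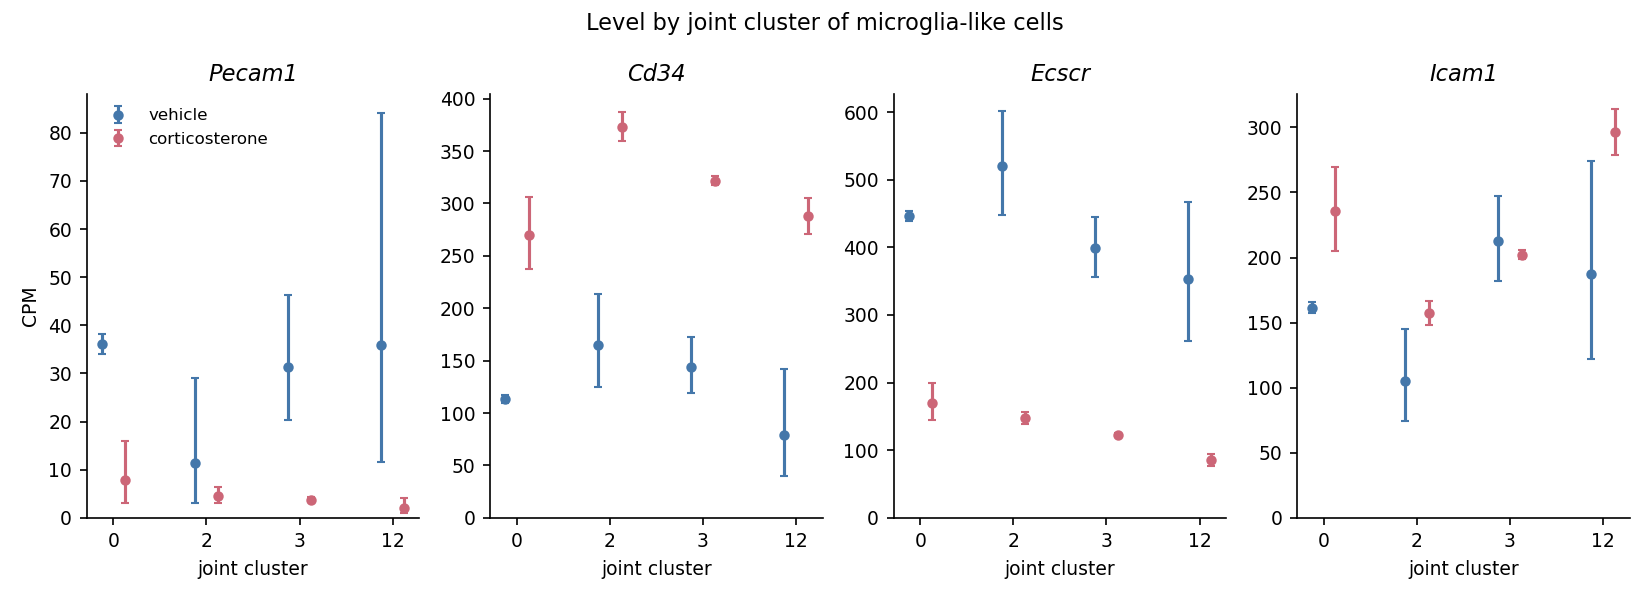
Level in CPM (vertical axis) of the 4 members in joint clusters 0, 2, 3 and 12 of microglia-like cells (horizontal axis), with vehicle cells in blue and corticosterone cells in red. Whiskers are 95% counting intervals, and the cycling cluster with 2 corticosterone cells is left out. For Cd34 and Ecscr the libraries stay apart in each of these clusters, for Pecam1 their intervals overlap in cluster 2, and for Icam1 in cluster 3.

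Among corticosterone microglia, Icam1 was highest in the cells with interferon-type genes. In the cluster led by Ifit and Oas family genes, Icam1 was at 296 CPM (279 to 314) in 685 corticosterone cells and at 187 CPM (122 to 274) in 39 vehicle cells. When each gene was centred within its library and microglia were clustered again, the sub-cluster led by Ifit3, Ifit2 and Isg15 had Icam1 at 267 CPM in corticosterone, and the other 3 sub-clusters with over 200 corticosterone cells had it at 173 to 211 CPM. In vehicle the same interferon sub-cluster had Icam1 at 143 CPM (122 to 166), beside 168 CPM in the largest sub-cluster. Pecam1 lay between 24.1 and 36.3 CPM in the 5 vehicle sub-clusters and between 0 and 4.44 CPM in the corticosterone ones, of which the sub-cluster with neutrophil transcripts had 0 UMIs in 282 cells.

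Endothelial transcripts were few in these microglia, with Cldn5 and Tie1 at or near 0. The 15 endothelial markers summed to 488 UMIs in vehicle microglia, 15.2 CPM (13.9 to 16.6), and to 766 UMIs in corticosterone microglia, 10.8 CPM (10.0 to 11.6). Cldn5 had 5 and 2 UMIs, and Tie1 was at 0 in vehicle. Kdr gave 225 and 520 of the summed UMIs. In the corticosterone microglia this sum was larger than the 271 UMIs of Pecam1. Leaving out the 407 vehicle and 621 corticosterone microglia with any endothelial UMI changed no direction of a member.

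The Cldn5-positive endothelial barcodes were few and unlike in depth, with a median of 20269 UMIs in the 9 vehicle barcodes and 3879 in the 13 corticosterone barcodes. They also held microglial RNA. P2ry12 had a median of 110 UMIs in the vehicle barcodes and 0 in the corticosterone barcodes, and the 10 microglia markers summed to 35126 and 23512 CPM, against 37915 and 32723 CPM in microglia. The part of this RNA in the values that follow was not tested as a cause.

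Pecam1 was counted in 8 of 9 vehicle barcodes with Cldn5 and in 9 of 13 corticosterone barcodes, with 19 and 15 UMIs in all. The vehicle barcodes gave 128 CPM (77.4 to 201) and the corticosterone barcodes 162 CPM (90.6 to 267), and the log2 ratio was 0.33 (-0.75 to 1.39). The intervals of the libraries overlap, and that of the ratio includes 0 and lies wholly above the interval in microglia. Relative to microglia of the same library, Pecam1 was 3.61 times as high in vehicle and 42.5 times as high in corticosterone. For each Cldn5 UMI of these barcodes there were 0.257 Pecam1 UMIs in vehicle and 0.143 in corticosterone. When the barcodes were split by P2ry12 after their values had been seen, those without it (2 in vehicle, 7 in corticosterone) had 7 and 12 Pecam1 UMIs and a log2 ratio of -0.62 (-2.08 to 0.96). Those with it (7 and 6 barcodes) had 12 and 3 UMIs, at 86.3 and 43.3 CPM. Their log2 ratio was -0.996, with an interval of -3.46 to 0.89 that includes the ratio in microglia. The positive sign over all these barcodes was thus in neither part. Barcodes without P2ry12 held 8868 of 147866 UMIs in vehicle and 23388 of 92675 in corticosterone, and no direction is read for Pecam1 in endothelial barcodes.

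Cd34 was counted in 8 of 9 and 9 of 13 of these barcodes, with a vehicle level of 176 CPM (115 to 258) and a corticosterone level of 324 CPM (218 to 462), and its log2 ratio was 0.88 (0.07 to 1.70). Among barcodes without P2ry12 its UMIs were 4 and 8 and the ratio was -0.40 (-2.30 to 1.78), while barcodes with P2ry12 had 22 UMIs in each library, at 158 and 318 CPM, and a ratio interval of 0.08 to 1.93. Over all 40 and 24 endothelial-like barcodes the Cd34 ratio was 1.54 (0.88 to 2.23). Ecscr had 70 UMIs in 6 of 9 vehicle barcodes and 6 UMIs in 4 of 13 corticosterone barcodes, a log2 ratio of -2.87 (-4.36 to -1.68), but 69 of the 70 and all 6 lay in barcodes with P2ry12. It was the 1 member past a log2 ratio of 1 in the Cldn5-positive barcodes, where 14.2% of the 4314 genes with at least 10 UMIs were lower past that ratio and 12.3% were higher. Icam1, with 20 and 13 UMIs, was at 135 and 140 CPM, a log2 ratio of 0.05 (-1.08 to 1.13), and in barcodes without P2ry12 it had 0 and 1 UMI. Of the 4 members, Pecam1 and Cd34 were thus each counted by several UMIs in endothelial barcodes free of P2ry12.

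**Figure D4:**
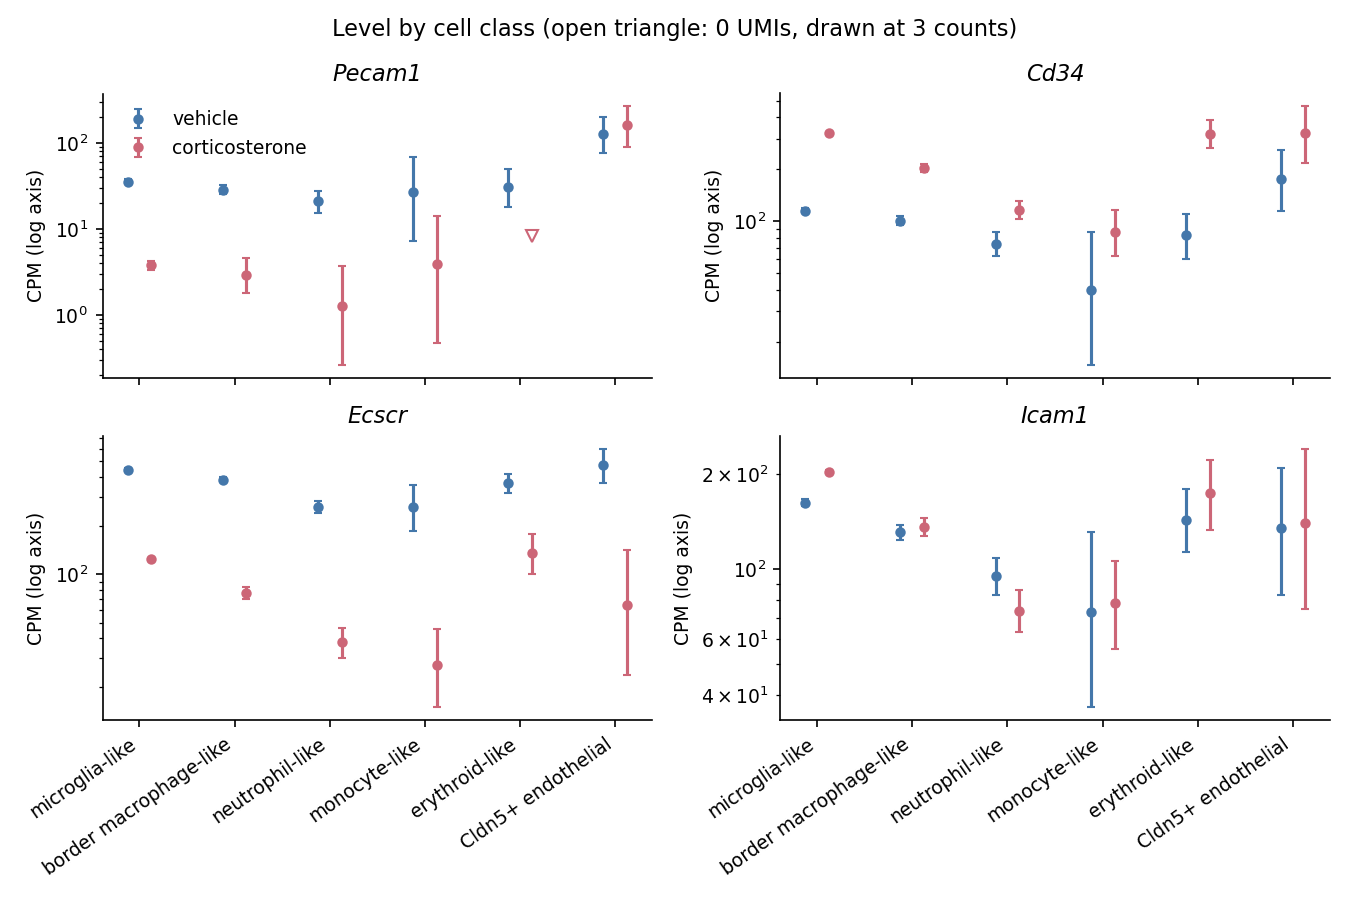
Level in CPM (vertical log axis) of each member in 6 cell classes (horizontal axis), with the vehicle library in blue and the corticosterone library in red. Points are sums over a class, whiskers 95% counting intervals, and the open triangle stands for 0 UMIs drawn at 3 counts. Pecam1 is highest in Cldn5-positive endothelial barcodes, at 128 and 162 CPM, while for the other members the vehicle intervals of microglia and of those barcodes overlap.

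In the other named classes the members were lower than in microglia or within counting error of them. In vehicle, Pecam1 was at 28.8 CPM (25.7 to 32.2) in border-associated macrophages, 31.2 CPM (18.2 to 50.0) in erythroid-like barcodes, 26.6 CPM (7.26 to 68.2) in monocytes and 21.1 CPM (15.5 to 28.0) in neutrophils. The intervals of neighbours in this order overlap, and those of border-associated macrophages and neutrophils lie below that of microglia. In corticosterone it was at 2.95 CPM in border-associated macrophages, 3.90 CPM in monocytes and 1.27 CPM in neutrophils, with intervals that overlap that of microglia, and at 0 UMIs in erythroid-like barcodes, which allows up to 10.1 CPM. In border-associated macrophages of vehicle the 4 defining microglial markers stood at a median of 0.819 times their level in microglia (0.767 to 0.861), and Pecam1 stood at 0.809, Cd34 at 0.874, Ecscr at 0.868 and Icam1 at 0.805 times. In corticosterone the markers stood at 0.644 times (0.627 to 0.685), and the members at 0.774, 0.626, 0.619 and 0.670 times in the same order. In neutrophils the markers stood at 0.545 and 0.356 times, and the members at 0.585 to 0.644 times in vehicle and 0.306 to 0.364 times in corticosterone. Elsewhere the members strayed farther from the markers. In monocytes, with 30 and 60 barcodes, the markers stood at 0.555 and 0.237 times, Pecam1 at 0.747 and 1.03 times from 4 and 2 UMIs, Cd34 at 0.348 and 0.265 times, Ecscr at 0.584 and 0.222 times, and Icam1 at 0.451 and 0.385 times. In erythroid-like barcodes the markers stood at 0.799 and 0.839 times, Pecam1 at 0.877 and 0 times, Cd34 at 0.721 and 0.992 times, Ecscr at 0.822 and 1.09 times, and Icam1 at 0.884 and 0.854 times. The part of microglial RNA in the levels of these classes was not tested further. Barcodes of unnamed clusters, 921 and 1331 in number, had Icam1 at 176 and 239 CPM.

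The ratios in these classes had the signs seen in microglia, apart from Icam1. In border-associated macrophages the log2 ratio was -3.29 for Pecam1, -2.34 for Ecscr and 1.02 for Cd34, where 1.82% of genes were lower and 2.93% higher past 1. In neutrophils it was -4.05 for Pecam1 (47 and 3 UMIs) and -2.79 for Ecscr, and 0.66 for Cd34, where 7.67% of genes were lower and 2.47% higher past 1. Icam1 had a ratio of 0.06 (-0.06 to 0.18) in border-associated macrophages and of -0.36 (-0.66 to -0.07) in neutrophils. The marker P2ry12 had ratios of -1.13 and -1.52 in these classes and of -0.80 in microglia. Since the classes share their libraries and some of their RNA, the repeated signs are no independent evidence.

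**Figure D5:**
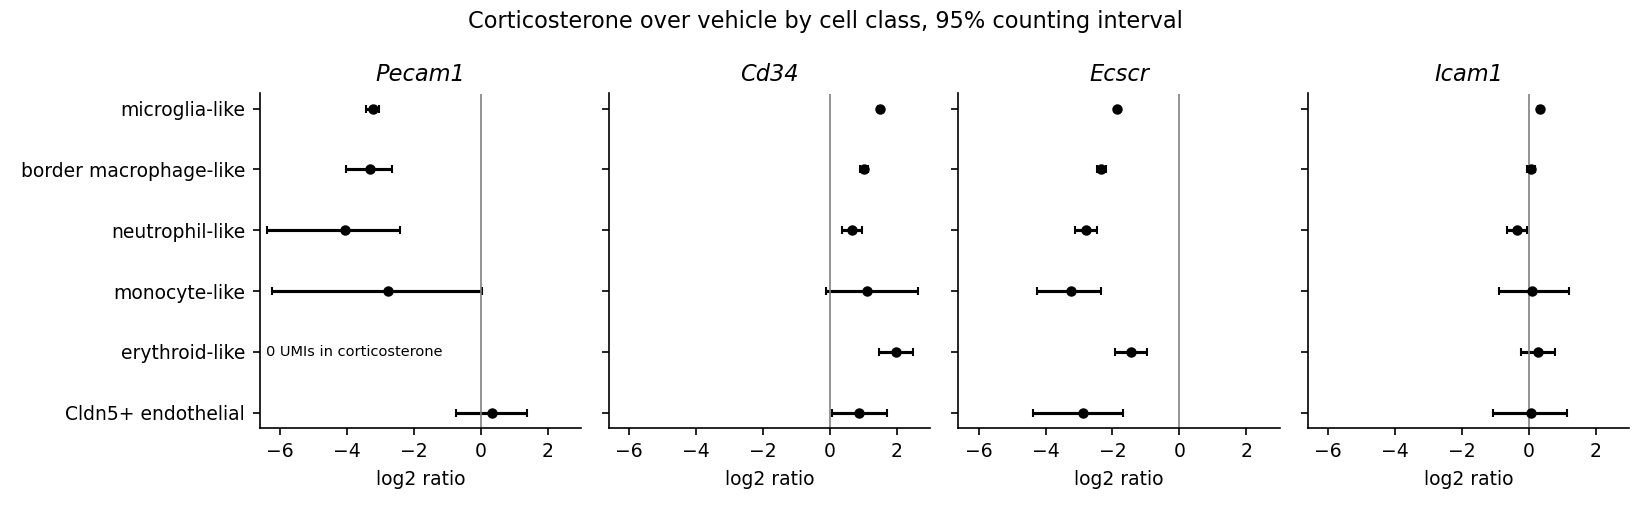
Log2 ratio of corticosterone over vehicle (horizontal axis) of each member in 6 cell classes (vertical axis), with 95% counting intervals as whiskers. The vertical line marks equal levels. Pecam1 lies far below 0 in microglia, border-associated macrophages and neutrophils, and its interval spans 0 in Cldn5-positive endothelial barcodes, and Icam1 lies near 0 in each class.

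Partners of the members and other related genes were read from lists. The list of leukocyte counter-receptors also holds genes that are not partners of a member, such as Itga4, which binds Vcam1. Of its 12 genes, 7 reached 5 CPM in microglia. Of these, 2 were higher past a log2 ratio of 1 and 0 lower, where 2.24% of all 9670 genes were higher and 2.04% lower. Their median was 0.16, against -0.01 over all genes. At a mean of 20 CPM 1 of 6 was higher, as were 119 of all 6606 genes at that level, and the median of the list was 0.09. Itgb2, the chain shared by the leukocyte integrins that bind Icam1, had a vehicle level of 257 CPM and a corticosterone level of 543 CPM, giving a log2 ratio of 1.08 (1.05 to 1.12). Itgax, the CD11c chain, was at 4.08 and 10.7 CPM, a ratio of 1.39 (1.12 to 1.67), and reached the level through the corticosterone library alone. Itgam, the CD11b chain on which the cells were sorted, had the lowest ratio of the list, with 522 and 351 CPM and -0.57 (-0.60 to -0.54).

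Of 19 other adhesion and transmigration genes, 9 reached 5 CPM, 1 was higher and 0 were lower past 1 (2.24% and 2.04% of all genes), and the median was -0.14. Vcam1, an immunoglobulin-type receptor for leukocyte integrins, was at 8.41 and 19.3 CPM, a log2 ratio of 1.20 (1.01 to 1.39). Jam3, a junctional adhesion molecule, had the lowest ratio, -0.75 (-0.90 to -0.61), with 21.3 and 12.6 CPM. Of the 4 sialomucins related to Cd34, Cd164 alone reached the level, at 736 and 525 CPM and a ratio of -0.49 (-0.51 to -0.46), a sign opposite to that of Cd34. Of 15 endothelial identity genes, Kdr, a receptor for vascular endothelial growth factor, alone reached it, at 7.01 and 7.31 CPM and a ratio of 0.06 (-0.17 to 0.29).

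All 8 genes that signal from the Pecam1 tail, phosphatases and kinases of the Src family among them, reached 5 CPM. Of these, 0 passed a log2 ratio of 1 in either direction, and the median was 0.11. Over all 9670 genes only 2.24% were higher and 2.04% lower past 1, so nothing is read from that 0. Src itself had the highest ratio, 0.63 (0.49 to 0.77), and Yes1 the lowest, -0.20 (-0.33 to -0.08). Among linkers of Icam1 or Ecscr to actin, 5 of 6 reached the level, 1 was higher and 1 lower past 1 (2.24% and 2.04% of all genes), and the median was 0.32. Flna, an actin crosslinker that binds Ecscr, was at 32.7 and 81.2 CPM, a ratio of 1.31 (1.22 to 1.41), and Actn1 (alpha-actinin) at 28.5 and 8.62 CPM, a ratio of -1.73 (-1.88 to -1.58). Among receptors and transcription factors that induce Icam1, 9 of 10 reached the level, 0 were lower past 1 (2.04% of all genes), and the median was 0.07. Nfkb1, an NF-kB subunit, had the lowest ratio of that list, -0.08 (-0.13 to -0.04), which is smaller than the shift another scaling gives to all genes.

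Over 12 sums (6 classes in each library), the genes whose log2(CPM + 1) went most closely with a member were found among 9576 genes. These points share libraries and microglial RNA, so the values of Pearson's r are descriptions only. By this measure Pecam1 went with Fam72a (0.926), Map4k4 (0.923) and Tug1 (0.922). Ecscr went with Lag3 (0.985), Cst3 (0.984) and Crybb1 (0.979), and Cd34 with Slc15a3 (0.976), Tcn2 (0.974) and Gpr84 (0.952). Icam1 went with Syngr1 (0.977), Bcl2a1b (0.973) and Bhlhe41 (0.970). Among the members themselves r was 0.746 for Cd34 and Icam1, 0.655 for Pecam1 and Ecscr, and -0.32 for Pecam1 and Cd34.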

How the data were processed

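Whole UMI counts per gene and barcode were deposited by the authors for 1 vehicle and 1 corticosterone library. The submitters' processing notes name bcl2fastq 2.19 and GRCm38, and the counting program is not given in the sources used here. A minimum of 500 UMIs and 300 genes and a maximum of 20% mitochondrial UMIs per barcode removed 55 of 10555 vehicle and 230 of 18113 corticosterone barcodes. Of the 32589 features, 52 repeated a symbol. Scrublet marked 0 cells in either library, which was taken as a caller that had not worked, so no doublet was removed.

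Logarithms were taken of counts brought to 10000 in each cell. A total of 2000 variable genes without the 4 members, 30 components and 15 neighbours entered Leiden clustering (scanpy 1.11.5, igraph 0.11.9) at resolution 0.5. The clustering run at the outset, without scaling genes to unit variance, gave no endothelial-like cluster. Several other clusterings were then looked at, and scaling (values capped at 10), Jaccard weights and iteration to convergence were adopted after the data had been seen because they separated the barcodes with endothelial markers. Clusters were named from markers of 14 classes. A class needed at least 3 markers in 10% of cells at 2 times the level elsewhere. For microglia, 3 detected markers and a geometric mean of at least 0.5 times the level of all cells were enough. All microglia-like clusters were named by this looser rule, with 0 or 1 markers raised. A cluster was left unnamed if its leading genes held more markers of another class, or if it was shallow and they held none of its own.

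UMIs were summed per class and library and given as CPM. The 95% intervals are exact Poisson ones for summed UMIs, conditional on the total for ratios, and Clopper-Pearson ones for the share of cells. They cover counting error and not differences between animals. No test was made, since each group has 1 library. Loci are from GENCODE M21 and promoters from RefSeq GRCm38.p6, which matched 2 of the 4 members. Genes named are the 4 members, for each of 7 lists the highest and lowest ratio at 5 CPM or more and those past a log2 ratio of 1, and for each member the 3 genes with the closest pattern. The result of 1 gene named by this rule is not reported here. The members and lists were chosen with earlier results of these data known. The splits by P2ry12, the ratios to microglial markers, the barcodes low in microglial RNA and the pairs without thinning were added after values had been seen. Alternatives used edgeR 4.0.16 and DESeq2 1.42.0 for scaling only.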

Additional observations from a re-analysis of the deposited data

Results flagged for a closer look

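In Cldn5-positive endothelial barcodes Pecam1 had a log2 ratio of 0.33 (-0.75 to 1.39), the opposite sign to microglia, where it was -3.23. The difference was not tested, with 1 library per group. The ratio was -0.62 in barcodes with 0 P2ry12 UMIs and -0.996 in those with P2ry12 UMIs, so the positive sign was in neither part. In neutrophil-like barcodes Icam1 had a log2 ratio of -0.36, while in microglia it was 0.32. That difference was not tested either, and P2ry12, a transcript of microglia, had ratios of -1.52 and -0.80 in these classes.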

How the results depend on the processing

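No paired analysis was possible because each group has 1 library. In microglia 15 alternatives were run and no member changed direction, with ranges of -4.65 to -3.09 for Pecam1, -2.11 to -1.74 for Ecscr, 1.49 to 1.61 for Cd34 and 0.26 to 0.43 for Icam1. With edgeR's TMM factors Cd34 was at 1.59, Ecscr at -1.76 and Icam1 at 0.41, and with DESeq2's size factors at 1.61, -1.74 and 0.43, while the median of all genes moved from -0.01 to 0.08 and 0.09. The strict choice of microglia per cell gave -4.65 for Pecam1, from 17 and 1 UMIs, 1.58 for Cd34 and -2.11 for Ecscr, and a mean over cells gave -1.80 for Ecscr and 0.26 for Icam1. Unscaled variable genes, added after seeing the data, gave -3.17 for Pecam1, 1.50 for Cd34, -1.85 for Ecscr and 0.31 for Icam1. In Cldn5-positive endothelial barcodes, DESeq2's size factors turned Icam1 to -0.037. Barcodes with 0 P2ry12 UMIs, also added after seeing the data, turned Pecam1 to -0.62 and Cd34 to -0.40, from 2 and 7 barcodes, and Ecscr and Icam1 had no ratio there. All endothelial-like barcodes, with or without Cldn5, gave 0.68, 1.54, -2.05 and 0.21 for Pecam1, Cd34, Ecscr and Icam1, and all barcodes with at least 3 Cldn5 UMIs, in any cluster, gave 0.55, 0.83, -2.89 and 0.48 in the same order. With every gene of 1 UMI in each library admitted, the median of other adhesion genes turned to 0.19 and that of endothelial identity genes to -1.04, since more genes entered. Endothelial identity genes had no value at 20 CPM. The cause of the other shifts was not tested. Depth limits the endothelial values, with 19 and 15 Pecam1 UMIs.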

Other observations

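Genes under the level of 5 CPM were also counted in microglia, and those given here were chosen after their values had been seen. Itgal, the alpha chain that pairs with Itgb2 to bind Icam1, had 11 UMIs in vehicle microglia and 217 in corticosterone microglia, levels of 0.343 and 3.05 CPM and a log2 ratio of 3.15 (2.29 to 4.18). Itga4, the integrin chain that binds Vcam1, had 55 and 364 UMIs, a ratio of 1.58 (1.17 to 2.01). Cd44, a hyaluronan receptor, had 50 and 343 UMIs, a ratio of 1.63 (1.20 to 2.09). Cdh5, the cadherin of endothelial junctions, had 85 and 24 UMIs, levels of 2.65 and 0.337 CPM and a ratio of -2.97 (-3.69 to -2.30), in the direction of Pecam1. It was not alone in this. Of 14 endothelial identity genes with at least 1 UMI in each library, 12 were below 0 and 2 above, many from few UMIs. Past 1, 7 of them were lower. Of all 17964 such genes, 10621 were below 0 and 2607 lower past 1. Others of the same lists were lower past 1 in corticosterone. Their ratios were -1.97 (-2.92 to -1.06) for Cd38, -2.07 (-3.34 to -0.90) for Icam5, -1.37 (-1.77 to -0.98) for Podxl2 and -1.11 (-1.78 to -0.45) for Vwf. Apart from that of Cd38, these intervals reach above -1. Of all 17964 genes with at least 1 UMI in each library, 2607 were lower and 897 higher past 1, so nothing is read from these picks. Ezr, an actin linker related to Msn and Rdx, was at 2.74 and 6.83 CPM, a ratio of 1.32 (0.99 to 1.66).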
